A study of Mus musculus with 12 samples.

Results

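The 8 perivascular macrophage genes *Mrc1*, *Cd163*, *Lyve1*, *F13a1*, *Stab1*, *Ms4a7*, *Cd209f* and *Clec10a* were followed in cerebral vessels of mice after systemic LPS. The genes were chosen by name as markers of macrophages at the borders of the brain, and their symbols were matched to Ensembl genes of GRCm38. All 8 of 8 were in the table of normalized counts, which lists 54331 genes, and all 8 were among the 19150 genes that passed the filter on low counts. Vessels came from the forebrains of wild-type C57BL6 mice aged 2 to 3 months, perfused and stripped of meninges. Mice received PBS, or LPS (lipopolysaccharide of *E. coli*) at 10 mg/kg into the peritoneum, and vessels were isolated 15 or 30 min, or else 4 h, after LPS. Each of the 4 groups had 3 libraries, and each library pooled vessels of 1 male and 1 female mouse, so every group drew on 6 mice. The study asked how early the vessels respond to systemic inflammation. When the PBS mice were killed was not given in the sources used here.

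Perivascular macrophages sit in the space between the vessel wall and the glial boundary of the brain. They take up debris and proteins that leave the blood and are known for scavenger and lectin receptors that microglia largely lack. *Mrc1* encodes the mannose receptor CD206, *Clec10a* a lectin for galactose and N-acetylgalactosamine, and *Cd209f* a relative of the lectin DC-SIGN. *Stab1* encodes stabilin-1, which clears modified lipoproteins and SPARC, *Cd163* the receptor for haptoglobin-hemoglobin complexes, and *Lyve1* a receptor for hyaluronan. *F13a1* encodes the catalytic A subunit of coagulation factor XIII, a transglutaminase, and *Ms4a7* a tetraspan membrane protein of macrophages. Several of these genes are also used outside the brain border, *Lyve1*, *Mrc1* and *Stab1* by lymphatic or sinusoidal endothelium, *F13a1* by platelets and monocytes, and *Clec10a* by dendritic cells.

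The genes lie on 8 chromosomes of GRCm38. *Mrc1* is at chr2:14229392-14332057 on the plus strand and *Cd163* at chr6:124304656-124330527 on the plus strand. *Lyve1* is at chr7:110850607-110863239 on the minus strand, *Cd209f* at chr8:4102787-4105835 on the minus strand and *Clec10a* at chr11:70156197-70170834 on the plus strand. *F13a1* is at chr13:36867178-37050244, *Stab1* at chr14:31139013-31168641 and *Ms4a7* at chr19:11321039-11336146, all on the minus strand. Promoters, 250 bases before to 50 bases after a start site, were read from RefSeq (GRCm38.p6) for 6 of the 8 genes. The promoters of *Mrc1* (chr2:14229164-14229463, plus strand), *Stab1* (chr14:31168592-31168891, minus strand) and *Cd163* (chr6:124304401-124304700, plus strand) are printed because *Mrc1* and *Stab1* moved in opposite directions at LPS 4 h and *Cd163* had no change called. Capitals mark the core GAGGAA, or TTCCTC on the other strand, which the macrophage factor PU.1 is known to bind.
Mrc1: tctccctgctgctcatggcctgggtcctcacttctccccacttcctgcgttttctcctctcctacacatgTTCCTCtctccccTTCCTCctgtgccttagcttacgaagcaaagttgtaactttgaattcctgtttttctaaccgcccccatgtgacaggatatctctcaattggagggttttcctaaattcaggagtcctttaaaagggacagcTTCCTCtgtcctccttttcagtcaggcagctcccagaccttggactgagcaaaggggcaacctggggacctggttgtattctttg
Stab1: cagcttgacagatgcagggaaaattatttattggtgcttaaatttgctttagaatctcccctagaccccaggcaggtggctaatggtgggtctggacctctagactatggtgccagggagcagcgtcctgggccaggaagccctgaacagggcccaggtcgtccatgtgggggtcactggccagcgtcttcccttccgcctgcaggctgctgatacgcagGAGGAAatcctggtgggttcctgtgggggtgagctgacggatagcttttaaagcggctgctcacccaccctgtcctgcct
Cd163: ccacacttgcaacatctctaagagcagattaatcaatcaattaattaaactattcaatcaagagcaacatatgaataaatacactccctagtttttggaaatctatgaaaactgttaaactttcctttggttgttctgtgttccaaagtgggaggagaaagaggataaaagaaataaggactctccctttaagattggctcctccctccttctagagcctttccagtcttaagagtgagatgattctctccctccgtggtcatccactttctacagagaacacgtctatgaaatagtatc
The table holds 8 promoters of the 6 genes, a pair each for *F13a1* and *Ms4a7*. The core was present in 5 of the 8, with 3 matches in *Mrc1*, 1 in *Stab1*, and the others in both promoters of *F13a1* and 1 of *Ms4a7*. It was absent from those of *Cd163* and *Cd209f*. Of all 32851 promoters in the table, 28.3% held it. An NF-kB motif (GGG, then any 5 bases, then CC, on both strands like all motifs here) was found in 4 of the 8 promoters, those of *Mrc1*, *Cd163* and *Cd209f* and 1 of *F13a1*, and in 50.8% of all promoters. The MAF half-site TGCTGA was found in 1 of 8 (19.5% of all) and the AP-1 motif TGANTCA in 2 of 8 (7.81% of all). The C/EBP motif TTGCNNAA (10.8% of all) and the STAT motif TTCNNNGAA (8.30% of all) matched in none of the 8. *Mrc1* and *Stab1* thus both held the PU.1 core, and none of these matches was tested for binding.

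Depth was 18.3 to 25.9 M fragments per library. Levels are given as CPM, fragment counts per library total after scaling by a TMM factor, and as TPM, which also corrects for transcript length. A gene was called when edgeR found a change beyond 0.58 on the log2 scale at an adjusted p below 0.05. TMM factors lay between 1.04 and 1.17 in PBS and the early LPS groups and between 0.715 and 0.718 at LPS 4 h. With library totals alone the median log2 fold change of all genes at LPS 4 h against PBS was −0.71, against −0.01 with TMM, so changes at LPS 4 h are relative to that shift and both scalings are given. In PBS libraries the brain endothelial markers summed to 10824 to 11095 CPM and mural cell markers to 5849 to 5958. Choroid plexus markers summed to 10498 to 10938 CPM, of which the single gene *Ttr* averaged 10060. The 8 perivascular macrophage genes summed to 350 to 353 CPM. Because these are bulk samples, fewer macrophages and less RNA per macrophage cannot be told apart. *Xist*, transcribed only from the inactive X chromosome of females, fell by 2.10, 4.26 and 1.05 on the log2 scale in LPS vessels at the early, middle and late time. Its mean was 307 CPM in PBS and 16.0 at LPS 30 min. The Y-linked *Ddx3y* measured 0.55 (SE 0.08), not called, at LPS 15 min and rose by 1.11 (SE 0.08) at LPS 30 min and by 1.61 (SE 0.08) at LPS 4 h. The other Y-linked genes of the list were higher at LPS 30 min but not called, *Kdm5d* by 0.46 (SE 0.10), *Eif2s3y* by 0.54 (SE 0.08) and *Uty* by 0.54 (SE 0.08). Their LPS 30 min libraries all lay above PBS. Without the limit of 0.58 each of them passed, as did 36.9% of all genes in either direction. The part of the sex makeup of the pools in the values below was not tested.

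In PBS vessels *Stab1* stood far above the other perivascular macrophage genes, and *Lyve1* was lowest in TPM. In mean CPM *Lyve1* (6.62) was above *Ms4a7* (4.23) and *Cd209f* (3.89). In CPM, which does not correct for length, *Stab1* averaged 231 and *Mrc1* 48.7, a narrower gap than in TPM. Per length, with all its transcripts counted, *Stab1* had 134 TPM ± 8.23 (SD, n = 3 libraries), which was 66.9% of the summed TPM of the 8 genes. *Mrc1* followed at 15.7 ± 0.410 TPM and *Clec10a* at 15.3 ± 1.25 TPM, whose libraries overlapped. *F13a1* had 12.1 ± 0.927 TPM and *Cd163* 7.53 ± 0.241 TPM, each separate from its neighbours in the order. *Cd209f* at 6.26 ± 0.719 TPM and *Ms4a7* at 5.34 ± 0.677 TPM overlapped. *Lyve1* had 3.87 ± 0.463 TPM and was below *Ms4a7* in every PBS library. By LPS 4 h *Clec10a* had moved from the third to the last place at 1.80 ± 0.449 TPM. *Stab1* remained first at 42.6 ± 0.608 TPM and *Mrc1* second at 15.3 ± 0.720 TPM.

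Part of the signal came from transcripts without a full coding sequence. In PBS, 47.3% ± 0.742 of *Stab1* fragments, 46.1% ± 11.7 of *Cd209f*, 24.9% ± 5.41 of *Cd163* and 23.4% ± 6.20 of *Ms4a7* fragments were assigned outside protein-coding transcripts, most of the *Stab1* share to retained-intron forms. For *Stab1* the share was 48.7% ± 1.29 at LPS 4 h, close to PBS. It was lower at LPS 4 h, without overlap with PBS, for *Ms4a7* (3.07% ± 1.21) and *Cd163* (11.2% ± 3.85), and for *Cd209f* it was 63.7% ± 22.0, overlapping PBS. Also, 36.3% of the 31-base words of *Cd209f* transcripts occur in *Cd209g*, and 14.8% of those of *Clec10a* occur in other genes, mainly *Mgl2*, so fragments of these genes can be split between copies. *Stab1* overlaps *Nt5dc2* and *F13a1* overlaps a pair of antisense genes on the opposite strand, and no strand setting was given in the sources used here.

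**Figure D1:**
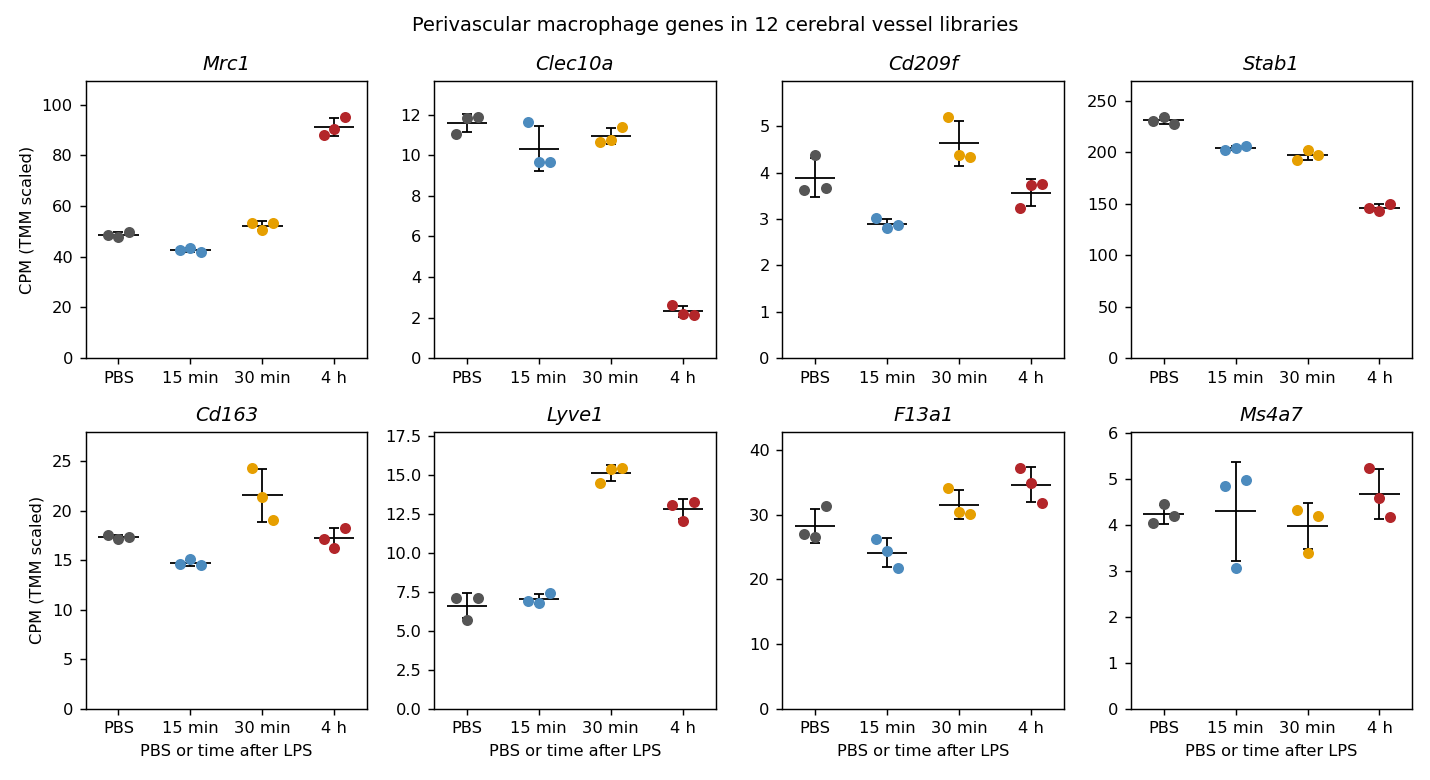
Level of each perivascular macrophage gene in the 12 libraries in CPM with TMM scaling, by group. Points are libraries, horizontal lines means and bars SD (n = 3). *Mrc1* rose at LPS 4 h and *Lyve1* at LPS 30 min and LPS 4 h, although neither was called at LPS 4 h with library totals alone, and *Clec10a* and *Stab1* fell at LPS 4 h.

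The lectin receptors split at LPS 4 h. *Mrc1* measured 48.6, 47.7 and 49.7 CPM with PBS, 42.6, 43.6 and 41.7 in vessels taken 15 min after LPS, 53.4, 50.4 and 53.1 after 30 min, and 88.1, 90.3 and 95.0 after 4 h. All 3 LPS 4 h libraries were above every other library. The log2 fold change at LPS 4 h was 0.91 (SE 0.05, edgeR adjusted p = 1.53e-07) against PBS and 0.80 (SE 0.05, adjusted p = 3.49e-05) against LPS 30 min. With library totals alone it was 0.20 against PBS, not called (adjusted p = 1), and in TPM *Mrc1* was 15.7 in PBS and 15.3 at LPS 4 h. On library totals alone *Mrc1* had 56.8, 55.5 and 58.1 CPM in PBS and 63.0, 64.8 and 68.1 at LPS 4 h, without overlap. The size of the rise thus depended on the scaling, and both scalings are relative measures.

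*Clec10a* fell under every scaling. It had 11.1, 11.8 and 11.9 CPM with PBS, 11.6, 9.69 and 9.66 in vessels taken 15 min after LPS, 10.7, 10.8 and 11.4 after 30 min, and 2.62, 2.20 and 2.12 after 4 h. PBS, LPS 15 min and LPS 30 min lay close together and the 3 LPS 4 h libraries, with 34, 33 and 31 fragments, were far below. The log2 fold change at LPS 4 h was −2.33 (SE 0.14, adjusted p = 5.90e-11) against PBS and −2.25 (SE 0.15, adjusted p = 1.89e-10) against LPS 30 min, and over all alternatives it ranged from −3.03 to −2.20 against PBS. Summed with its paralog *Mgl2*, whose own change of −0.69 (SE 0.18, adjusted p = 0.250) was not called, the pair measured 18.4 ± 0.222 CPM in PBS and 6.51 ± 0.816 at LPS 4 h, without overlap, so the summed pair was lower as well.

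The third lectin, *Cd209f*, was low and had no change called. Its libraries had 3.63, 4.39 and 3.66 CPM with PBS, 3.02, 2.80 and 2.87 in vessels taken 15 min after LPS, 5.20, 4.39 and 4.34 after 30 min, and 3.24, 3.73 and 3.76 after 4 h. The LPS 15 min libraries were below all PBS and all LPS 30 min libraries, and LPS 4 h overlapped PBS. In time order the differences from PBS were −0.43 (SE 0.17), 0.25 (SE 0.16) and, after 4 h, −0.12 (SE 0.17) on the log2 scale. On protein-coding transcripts only the sign at LPS 30 min turned to −0.40, and the value at LPS 4 h was −0.73, neither called, and with library totals alone the value at LPS 4 h was −0.83 and was called (adjusted p = 0.0472). Of its relatives, *Cd209g* measured −1.13 (SE 0.40), *Cd209b* −0.89 (SE 0.45), *Cd209a* −0.07 (SE 0.27) and *Cd209c* 0.15 (SE 0.19) at LPS 4 h, none called.

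Among the scavenger receptors *Stab1* fell at LPS 4 h. It had 231, 234 and 228 CPM with PBS, 202, 204 and 207 in vessels taken 15 min after LPS, 193, 202 and 198 after 30 min, and 146, 143 and 150 after 4 h. Libraries of PBS were the highest and those of LPS 4 h the lowest, with no overlap between PBS and any LPS group, while LPS 15 min and LPS 30 min overlapped. Against PBS the log2 fold change was −0.18 (SE 0.03) and −0.22 (SE 0.03) at the early times, not called, and −0.66 (SE 0.03, adjusted p = 0.00566) after 4 h, where it was called. DESeq2 with the same limit gave −0.65 at LPS 4 h, not called (adjusted p = 0.0921), and the change lies close to the limit of 0.58. Library totals alone gave −1.36. *Sparc*, encoding a ligand that stabilin-1 clears, also fell at LPS 4 h, by 0.63 (SE 0.02, adjusted p = 0.0210), from 1102 to 714 CPM. The relative *Stab2* had 0.366 CPM in PBS and was not called (−0.61, SE 0.74).

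*Cd163* was not called in any comparison with TMM. It measured 17.5, 17.2 and 17.4 CPM with PBS, 14.6, 15.1 and 14.6 in vessels taken 15 min after LPS, 24.4, 21.4 and 19.0 after 30 min, and 17.1, 16.2 and 18.3 after 4 h. All LPS 15 min libraries were below and all LPS 30 min libraries above PBS, while LPS 4 h overlapped PBS. On the log2 scale the differences from PBS were −0.23 (SE 0.08), 0.31 (SE 0.08) and, after 4 h, −0.01 (SE 0.09), none called. At LPS 4 h the value was 0.25 on protein-coding transcripts only, not called, and −0.72 with library totals alone, where it was called (adjusted p = 0.0398). In TPM it was 7.53 ± 0.241 in PBS and 3.65 ± 0.140 at LPS 4 h. Its ligand side changed far more, with the haptoglobin gene *Hp* at 0.898 CPM in PBS and 116 CPM at LPS 4 h, a rise by 7.01 on the log2 scale (SE 0.10, adjusted p = 4.26e-25). *Hmox1*, the heme oxygenase that degrades heme, rose by 2.67 (SE 0.08, adjusted p = 4.43e-17). The iron exporter gene *Slc40a1* fell by 4.13 (SE 0.05, adjusted p = 1.09e-25), from 183 to 10.4 CPM.

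*Lyve1* was the earliest to be called. It had 7.08, 5.67 and 7.10 CPM with PBS, 6.92, 6.80 and 7.44 in vessels taken 15 min after LPS, 14.5, 15.4 and 15.5 after 30 min, and 13.1, 12.1 and 13.3 after 4 h. PBS and LPS 15 min overlapped, and every library of LPS 30 min and LPS 4 h was above them. Against PBS *Lyve1* changed by 0.09 (SE 0.12) at LPS 15 min, not called, and rose by 1.20 (SE 0.11, adjusted p = 5.00e-05) after 30 min and by 0.95 (SE 0.12, adjusted p = 0.00162) after 4 h. LPS 30 min was also above LPS 15 min, by 1.10 (SE 0.11, adjusted p = 0.000427). The rise at LPS 30 min held with library totals alone (1.03, adjusted p = 0.00192), whereas at LPS 4 h that scaling gave 0.25, not called. In fragments, the PBS libraries had 189, 168 and 186, the LPS 30 min libraries 335, 358 and 346, and the LPS 4 h libraries 170, 181 and 194. *Lyve1* is also a marker of lymphatic endothelium. Of the other lymphatic markers *Prox1*, which defines that lineage, was at 2.90 CPM in PBS and changed by 0.13 (SE 0.21) at LPS 30 min and 0.36 (SE 0.21) at LPS 4 h, not called, and no marker of 5 tested was called at LPS 30 min. At LPS 4 h *Flt4* and *Pdpn* rose, by 0.99 (SE 0.03, adjusted p = 1.95e-11) and 2.16 (SE 0.07, adjusted p = 6.08e-17), the first not under library totals alone. The summed lymphatic markers were 289 to 295 CPM against 130 to 134 in PBS, where *Flt4* alone averaged 102. The part of lymphatic endothelium in the *Lyve1* values was not tested.

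The ligands and partners list holds several genes for hyaluronan, the ligand of *Lyve1*, and they moved in both directions at LPS 4 h. *Cd44*, the other main hyaluronan receptor, rose by 3.85 (SE 0.13, adjusted p = 2.74e-17), and the synthase *Has1* by 3.64 (SE 0.43, adjusted p = 5.55e-07). The synthase *Has2* rose from 0.0604 CPM, a few fragments, to 1.54 CPM (adjusted p = 1.78e-06). The synthase *Has3* measured −0.37 (SE 0.20), not called, and −1.07 with library totals alone, where it was called. The hyaluronidases *Hyal2* and *Hyal1* fell by 2.54 (SE 0.05, adjusted p = 3.48e-20) and 2.10 (SE 0.10, adjusted p = 1.51e-12). None of these 6 genes was called at LPS 30 min, when *Lyve1* was highest. *Adam17*, which encodes a sheddase known to release membrane receptors, rose by 0.92 (SE 0.04, adjusted p = 3.14e-08) with TMM but was not called with library totals alone (0.22). *Mmp14*, encoding a membrane protease, fell by 0.96 at LPS 15 min and rose by 1.40 (SE 0.06, adjusted p = 3.68e-12) at LPS 4 h. Of the 17 ligands and partners, all tested, 9 rose and 6 fell at LPS 4 h, and with library totals alone 8 rose and 8 fell. Their median was 0.92 with TMM, against −0.01 for all genes tested.

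*F13a1* and *Ms4a7* were not called in any comparison. *F13a1* had 27.0, 26.6 and 31.3 CPM with PBS, 26.2, 24.4 and 21.7 in vessels taken 15 min after LPS, 34.1, 30.3 and 30.1 after 30 min, and 37.2, 35.0 and 31.8 after 4 h. The LPS 15 min libraries lay below PBS, LPS 30 min overlapped PBS, and LPS 4 h lay above it. Differences from PBS on the log2 scale were −0.23 (SE 0.08), 0.16 (SE 0.08) and, after 4 h, 0.29 (SE 0.08), and the value at LPS 4 h was −0.41 with library totals alone. The tissue transglutaminase gene *Tgm2*, of the same enzyme family, rose at LPS 4 h by 2.32 (SE 0.02, adjusted p = 6.55e-27).

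For *Ms4a7* the CPM were 4.05, 4.45 and 4.20 with PBS, 4.85, 3.06 and 4.98 in vessels taken 15 min after LPS, 4.33, 3.40 and 4.20 after 30 min, and 5.24, 4.60 and 4.17 after 4 h. All 4 groups overlapped. The log2 fold change at LPS 4 h was 0.14 (SE 0.19), and it was 0.54 with an offset for transcript length and −0.57 with library totals alone, neither called. Its relatives in the same gene family stood apart. *Ms4a6d* rose at LPS 4 h by 4.56 (SE 0.11, adjusted p = 9.98e-20), *Ms4a4a* by 3.42 (SE 0.15, adjusted p = 1.64e-14), *Ms4a6b* by 3.34 (SE 0.12, adjusted p = 4.98e-16) and *Ms4a6c* by 3.16 (SE 0.11, adjusted p = 1.03e-16), all also with library totals alone. Of the 12 relatives tested of 16, 5 rose (these 4 and *Cd44*) and 1, the collagen receptor *Mrc2*, fell (−0.89, SE 0.05, adjusted p = 1.58e-06) at LPS 4 h. With library totals alone 5 rose and 4 fell.

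**Figure D2:**
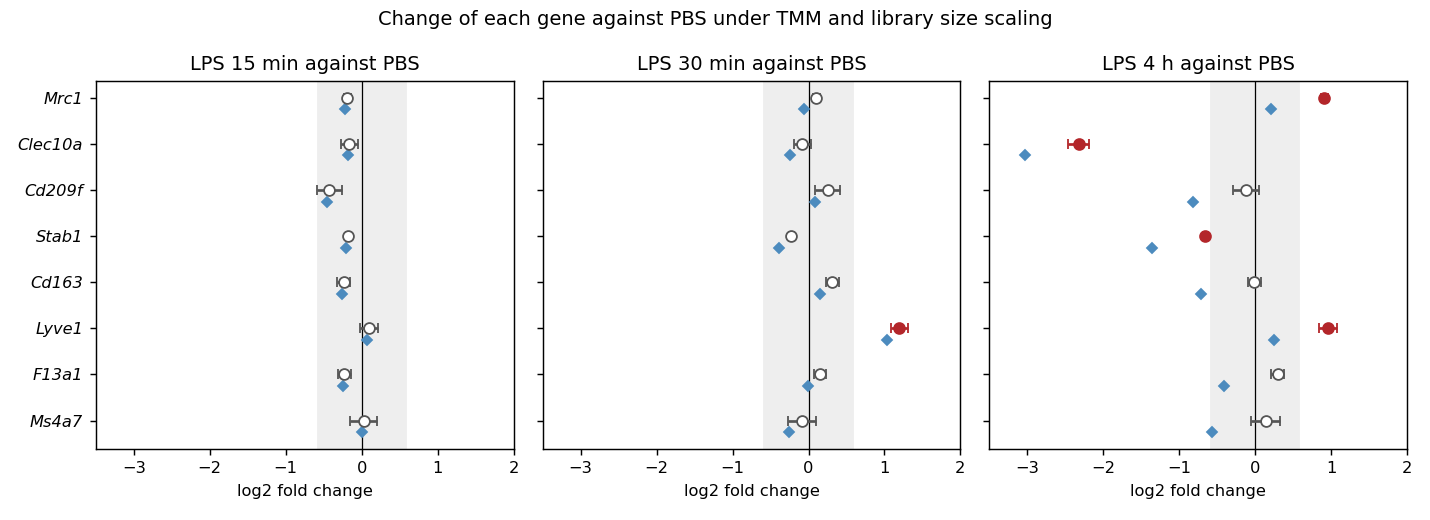
Log2 fold change of each perivascular macrophage gene against PBS at the 3 times after LPS. Circles are edgeR estimates with TMM scaling and bars their SE, filled where called, diamonds are estimates with library totals alone, and the grey band is the limit of 0.58. At LPS 4 h the diamonds lie about 0.70 to the left, so *Mrc1* and *Lyve1* fall inside the band while *Clec10a* and *Stab1* stay outside it.

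Across the 8 genes the direction was not shared. At LPS 15 min no gene was called, while the test called 4.25% of all genes. Without a fold limit edgeR gave an adjusted p below 0.05 for 5 of the 8 (*Mrc1*, *Cd163*, *F13a1*, *Stab1* and *Cd209f*), all lower by 0.18 to 0.43, against 18.2% of all genes lower by that test. The LPS 15 min libraries of the same 5 genes lay below all PBS libraries, as did 24.1% of all genes. Lists of markers of other cells went both ways at that time. Summed monocyte markers (68.4 to 75.0 CPM against 45.7 to 54.7 in PBS) were higher, with a log2 median of −0.37. Summed dendritic cell markers (89.0 to 91.3 CPM against 65.3 to 72.8) were higher, with a log2 median of 0.01. The sum of brain endothelial markers was higher as well, although their log2 median was −0.17. Of the 10, 1 was called higher, *Slc2a1* (2735 CPM in PBS and 4455 at LPS 15 min), and 2 lower (*Cldn5* and *Kdr*). The sums of microglia, mural cell and neural markers were lower, with log2 medians of −0.17, −0.41 and 0.12. Markers of platelets and fibroblasts were also lower. Platelet markers had a median of −1.09 on the log2 scale and a sum of 16.0 to 19.5 CPM against 28.3 to 30.8 in PBS, with 6 of 8 lower without overlap and 1, *Ppbp*, called (−1.59). Fibroblast markers had a median of −0.51 and a sum of 415 to 431 CPM against 619 to 653, with 3 of 7 called lower (*Slc6a13*, *Col1a1* and *Col3a1*). The part of these cells in the LPS 15 min values, including those of *F13a1*, which platelets also carry, was not tested. At LPS 30 min 1 of 8 was called (*Lyve1*), against 4.62% of all genes. From LPS 15 min to LPS 30 min 1 of 8 was called (*Lyve1*), against 4.76% of all genes, and 5 of 8 had LPS 30 min libraries above all LPS 15 min libraries, against 23.7%. *Cd163* and *Cd209f* changed by 0.55 (SE 0.08) and 0.68 (SE 0.17) in that interval, not called.

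At LPS 4 h 4 of 8 were called, *Mrc1* and *Lyve1* higher and *Clec10a* and *Stab1* lower, against 33.0% of all genes (13.9% lower and 19.1% higher). With library totals alone 4 of 8 were called and all 4 were lower (*Clec10a*, *Stab1*, *Cd163* and *Cd209f*), where 10.0% of all genes were called higher and 44.9% lower. For the 8 genes together the median change was 0.06 with TMM and −0.64 with library totals alone (log2 scale), against −0.01 and −0.71 for all genes. The share called among these 8 genes was thus near that of all genes. From LPS 30 min to LPS 4 h 2 of 8 were called (*Mrc1* and *Clec10a*), against 28.9% of all genes, and 5 of 8, all lower, with library totals alone, against 36.4% lower. Without a fold limit the calls among the 8 genes numbered 5 at LPS 15 min (38.6% of all genes), 3 at LPS 30 min (36.9%), 5 at LPS 4 h (68.5%), 5 from LPS 15 min to LPS 30 min (37.4%) and 4 from LPS 30 min to LPS 4 h (65.3%).

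Ratios of genes within a library do not depend on the scaling. *Stab1* had 852% ± 66.4 of the *Mrc1* TPM in PBS and 278% ± 14.1 at LPS 4 h (SD, n = 3). *Clec10a* had 97.4% ± 10.3 of *Mrc1* in PBS, 103% ± 15.8 after 15 min of LPS, 85.8% ± 6.88 after 30 min and 11.9% ± 3.38 after 4 h. *Cd163* went from 47.9% ± 2.75 to 23.8% ± 0.617, and *Cd209f* from 39.8% ± 5.31 to 19.9% ± 1.32 between PBS and LPS 4 h. For all 4 genes the LPS 4 h libraries were below every library of the other groups. *Lyve1* was 24.5% ± 2.63 of *Mrc1* in PBS, 29.3% ± 1.81 after 15 min of LPS, 53.0% ± 2.84 after 30 min and 27.6% ± 2.58 after 4 h, so it stood apart from *Mrc1* at LPS 30 min and overlapped its PBS ratio at LPS 4 h. The ratio of *F13a1* fell from 76.5% ± 3.86 to 52.9% ± 8.12, without overlap, and *Ms4a7* had 34.0% ± 4.76 in PBS and 27.7% ± 2.82 at LPS 4 h. In CPM with TMM, *F13a1* averaged 28.3 in PBS and 34.7 at LPS 4 h. Each ratio depends on *Mrc1* as well, which rose with TMM at LPS 4 h. With 3 libraries against 3 the smallest exact permutation p is 0.1, so these ratios are given without a test.

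**Figure D3:**
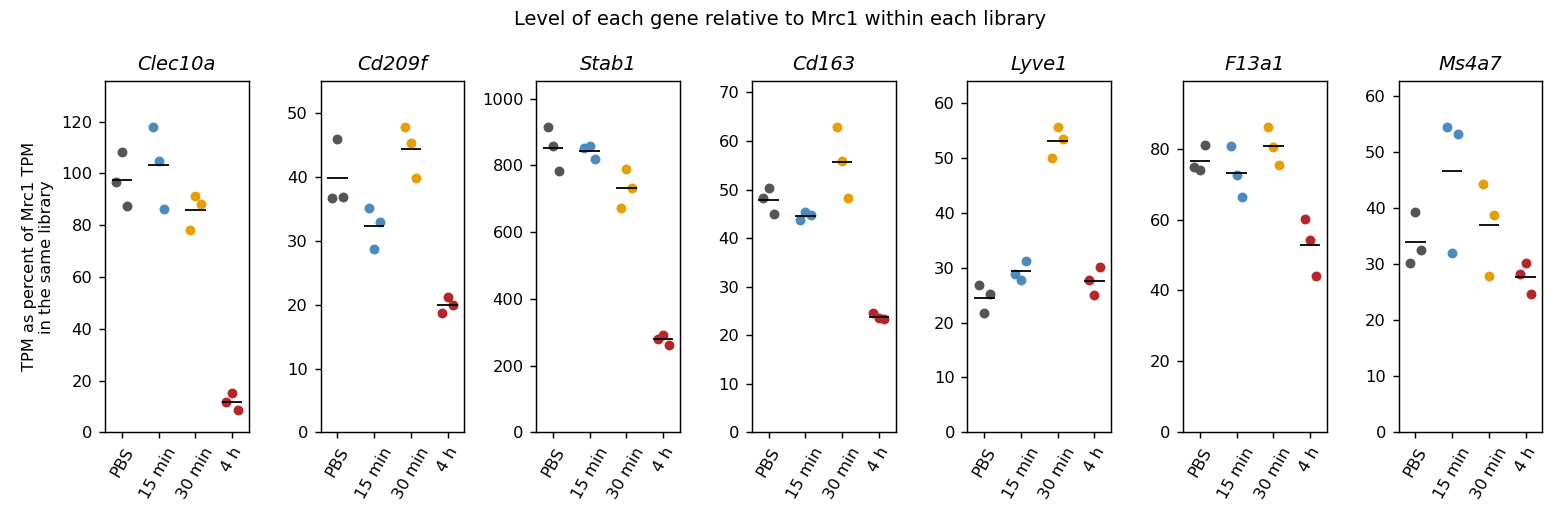
TPM of 7 perivascular macrophage genes as a percent of the *Mrc1* TPM of the same library, by group, with points for libraries and lines for means. *Clec10a* and *Stab1* show the widest drop at LPS 4 h, to 11.9% and 278% on average, and *Lyve1* peaks at LPS 30 min at 53.0%.

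Other genes of border macrophages mostly rose or stayed at LPS 4 h. Of 21 such genes 20 were tested, 10 rose, 1 fell and 9 were not called, and with library totals alone 7 rose and 6 fell. The largest rises were those of *Ms4a4a*, *Ms4a6b* and *Ms4a6c* given above. *Hpgd*, the enzyme that inactivates prostaglandins, fell by 2.35 (SE 0.17, adjusted p = 8.86e-10), and *Colec12*, a scavenger receptor, and *Apoe*, a lipid carrier, were next lowest at −0.44 (SE 0.05) and −0.40 (SE 0.02), not called. The median over the tested genes was 0.96 with TMM. None was called at LPS 15 min. At LPS 30 min 1 was called, *Ms4a6c* (0.89), and this call was lost without PBS library 1 or 3, without LPS 30 min library 1 or 3, and in 7 of the other alternatives, counting the test on library totals alone.

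General macrophage genes, which microglia and infiltrating cells share, were called higher in 6 of 14 at LPS 4 h and lower in none, and with library totals alone 4 rose and 4 fell. *Fcer1g*, a signalling chain of Fc receptors, rose by 2.71 (SE 0.08, adjusted p = 1.15e-17), the integrin gene *Itgam* by 2.51 (SE 0.14, adjusted p = 5.11e-12) and the leukocyte phosphatase gene *Ptprc* by 2.22 (SE 0.11, adjusted p = 1.92e-12). *Csf1r*, the receptor on which macrophages depend, measured −0.44 (SE 0.05), *Laptm5* −0.30 (SE 0.06) and *Aif1* −0.26 (SE 0.21), not called. None of the 14 was called at LPS 15 min or LPS 30 min. All 14 tested inflammatory macrophage genes rose at LPS 4 h under both scalings, led by *Acod1*, *Ccl4* and *Clec4e*, and 8 of 14 were called at LPS 30 min. Among regulators of macrophages 10 of 18 rose and 1 fell, the transcription factor gene *Klf4* (−2.07, SE 0.04, adjusted p = 1.52e-20), and with library totals alone 8 rose and 4 fell. *Il10* had no fragment in PBS and 4.08 CPM at LPS 4 h. *Cebpb* rose by 5.32 (SE 0.05, adjusted p = 2.66e-28) and *Il4ra*, the receptor chain for IL-4 and IL-13, by 4.01 (SE 0.05, adjusted p = 2.18e-26).

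Markers of other cells moved with the LPS 4 h group. Summed monocyte markers went from 45.7 to 54.7 CPM in PBS to 236 to 243 at LPS 4 h (7 of 8 higher), and *Ccr2*, which defines inflammatory monocytes, measured 0.38 (SE 0.25), not called. Summed neutrophil markers went from 7.53 to 9.66 CPM to 256 to 257 (9 of 9 tested higher), with *Ly6g*, *Elane* and *Mpo* at 0 in PBS. Microglia markers fell in 7 of 12 and rose in 1, from a sum of 152 to 159 CPM to 86.3 to 88.4, with *Gpr34*, *Slc2a5* and *Cx3cr1* lowest. Choroid plexus markers, a tissue with its own border macrophages, rose in 3 of 6 with TMM and in none with library totals alone, from 10498 to 10938 CPM to 17637 to 18525. In PBS most of this sum was *Ttr*, with a mean of 10060 CPM. The sum also stood below PBS at LPS 15 min (9355 to 9855 CPM) and above it at LPS 30 min (13849 to 14190 CPM). All 6 markers were lower without overlap at LPS 15 min, as were 24.1% of all genes, and higher without overlap at LPS 30 min. Without a fold limit all 6 passed at LPS 30 min, against 36.9% of all genes in either direction. The means of *Mrc1*, *Cd163*, *F13a1* and *Cd209f* had the same order at those times, and those of *Stab1*, *Clec10a*, *Lyve1* and *Ms4a7* did not. At LPS 4 h, when the choroid plexus sum was highest, *Cd163* and *Cd209f* overlapped PBS. Of the remaining lists at LPS 4 h, brain endothelial markers rose in 2 and fell in 7 of 10, fibroblast markers fell in 4 of 7, mural cell markers were not called in any of 8, platelet markers rose in 1 of 8, dendritic cell markers rose in 2 of 7, and markers of neurons, oligodendrocytes and astrocytes rose in 2 and fell in 1 of 9. With library totals alone the brain endothelial markers rose in 1 and fell in 8, fibroblast markers fell in 6, mural cell markers in 7 and platelet markers in 4 with none higher, dendritic cell markers rose in 2 and fell in 2, and the neural markers rose in 1 and fell in 6. On that scale microglia markers fell in 11 of 12, lymphatic markers rose in 1 and fell in 1 of 5, monocyte markers rose in 6 and neutrophil markers in 9. The part of any of these cells in the values of the perivascular macrophage genes was not tested.

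**Figure D4:**
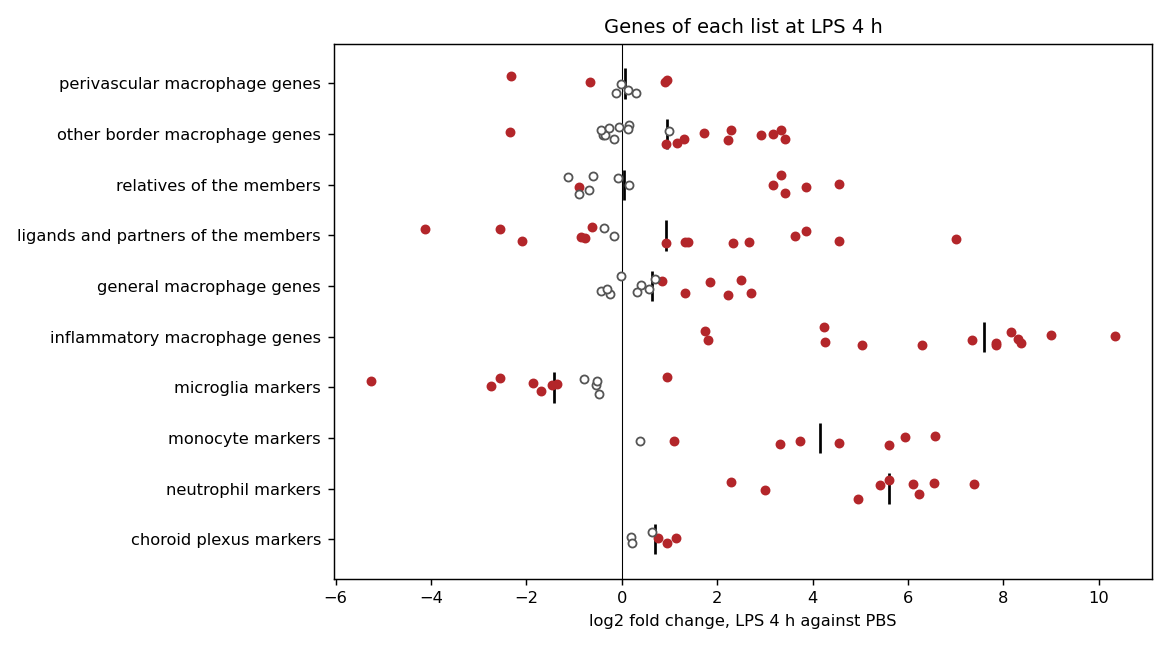
Log2 fold change at LPS 4 h against PBS with TMM scaling for the tested genes of 10 lists. Filled points passed the threshold, open points did not, and vertical lines are list medians. The perivascular macrophage genes spread around 0.06, while inflammatory macrophage and neutrophil genes have medians of 7.60 and 5.60 and microglia markers −1.42.

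The 8 genes also differed in how they varied together. Over the 12 libraries, which include the group differences, log2 CPM of *Stab1* and *Clec10a* correlated at Pearson r = 0.94 and *Cd163* and *Cd209f* at 0.89, while *Mrc1* correlated with *Clec10a* at −0.95 and with *Stab1* at −0.91. These values describe 12 libraries in 4 groups and share their scaling. Outside the 8 genes, the closest to their mean standardized profile were *Col8a2* (r = 0.95), *Nudt4* (0.94), *Snx33* (0.94), *Igfbp2* (0.92) and *Nnat* (0.92). Of these *Nnat* was called lower at LPS 15 min (−0.80, SE 0.03, adjusted p = 1.30e-06), and the other 4 were not called against PBS at any time.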

How the data were processed

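RNA of cerebral vessels was analysed in 12 libraries, 3 for PBS and 3 for each time after LPS, every one pooled from 1 female and 1 male mouse. Libraries were made with SMART-Seq v4 and Nextera XT and sequenced in pairs. The authors ran Salmon (1.2.1 in the submitters' processing notes) and deposited estimated counts of fragments per transcript and TPM values, which divide by length and then scale every library to the same total. The authors also deposited a gene table of normalized signal, counts divided by DESeq2 size factors after tximport on GRCm38.p6. Estimated counts were summed to 54119 genes of GENCODE M21 and rounded. Transcripts that could not be joined held 0.482% to 0.850% of fragments. Columns of the table were matched to libraries by the library number in each library's own file, and 0 columns were unused.

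Genes were filtered with filterByExpr (minimum count 10, total 15, share 0.7), leaving 19150. One edgeR 4.0.16 quasi-likelihood fit (R 4.3.3) covered all 12 libraries with TMM factors, and glmTreat tested 5 contrasts against 0.58 on the log2 scale, with Benjamini-Hochberg adjustment over all genes and a threshold of 0.05. SE is the log2 fold change divided by the root of the quasi-likelihood F. Alternatives were RLE factors, library totals alone, no filter, no fold limit, DESeq2 1.42.0, a fit on the groups compared, a block on library number, a length offset, protein-coding transcripts, limma 3.58.1 on the gene table with a pseudocount of 1, and leaving out each library. In simulated data 200 genes with means above 2 CPM were changed by 2 or 3 on the log2 scale, up or down. These were recovered at 100% in each comparison with PBS, with 2 to 3 unchanged genes called. Such changes lie far beyond the limit of 0.58, and recovery of smaller changes was not tested. Likeness used log2 of CPM plus 0.5 where a gene averaged 1 CPM or more. Python 3.11.15 with pandas 2.3.3, numpy 2.4.6 and matplotlib 3.10.9 handled tables and plots.

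The genes and lists were chosen with earlier results of these data known. Named were all 8 genes, the 3 largest rises and falls of each other list at LPS 4 h, relatives and ligands where needed, and the 5 genes most alike. *Ccr2*, *Prox1*, *Xist* and *Ddx3y* are given as markers and were named after their values were seen where the rule did not reach them. Within groups, pairs of libraries differed by 2.20 to 2.95 times the counting variance in the median over genes, so no library was a copy of another.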

Additional observations from a re-analysis of the deposited data

Results flagged for a closer look

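Change between the LPS times passed the edgeR threshold for 3 of the 8 genes, which means that their difference from PBS was not the same at the times compared. *Lyve1* was called from LPS 15 min to LPS 30 min, where the test called 4.76% of all genes. *Mrc1* and *Clec10a* were called from LPS 30 min to LPS 4 h, where it called 28.9% of all genes. *Lyve1* differed between LPS 30 min and LPS 15 min by 1.10 on the log2 scale (SE 0.11, adjusted p = 0.000427), with every LPS 30 min library above every LPS 15 min library. *Mrc1* differed between LPS 4 h and LPS 30 min by 0.80 (SE 0.05, adjusted p = 3.49e-05), and by 0.26 with library totals alone, which was not called. *Clec10a* differed between LPS 4 h and LPS 30 min by −2.25 (SE 0.15, adjusted p = 1.89e-10), and by −2.78 with library totals alone. Groups of 3 libraries were too small for a check of single outlying libraries.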

How the results depend on the processing

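Of 880 values of the 8 genes under 22 alternatives, 856 kept their side of the threshold, and no called value changed sign. Among values not called in either, 22 changed sign. Of the 24 that changed side, 14 did so without the fold limit, 9 with library totals alone and 1 with DESeq2. With library totals alone the 5 calls from LPS 30 min to LPS 4 h (against 2) were all lower, *Mrc1* and *Lyve1* at LPS 4 h against PBS were no longer called, and *Cd163* and *Cd209f* were. Without the fold limit, calls among the 8 genes numbered 5 at LPS 15 min, 3 at LPS 30 min, 5 from LPS 15 min to LPS 30 min and 4 from LPS 30 min to LPS 4 h. In the same setting 9, 6 and 17 of the 20 other border macrophage genes tested were called at LPS 15 min, LPS 30 min and LPS 4 h. For the 14 general macrophage genes the counts were 3, 8 and 12. That test called 38.6%, 36.9% and 68.5% of all genes at these times. The single call among other border macrophage genes at LPS 30 min was 0 with library totals alone, no filter, DESeq2, only the groups compared, the length offset, protein-coding transcripts and limma on the gene table. Leaving out single libraries gave 0 to 1 there, and changed no call among the 8 genes in 480 values. *Stab1* at LPS 4 h stayed between −0.68 and −0.64 when a library was left out, with adjusted p up to 0.0331, and was lost with DESeq2 (−0.65). The cause of these differences was not tested.

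The same library numbers occur in every group. Between groups, same-numbered libraries had departures from their group means that correlated between −0.06 and 0.06 in 18 pairs, and 7 of 18 were closest to their own number, so no pairing was assumed. With the replicate block the calls among the 8 genes were 0, 1 and 4 at LPS 15 min, LPS 30 min and LPS 4 h, and no call among them changed. *Cd209f*, *Ms4a7* and *Clec10a* at LPS 4 h rest on 31 to 69 fragments per library, which limits how small a change could be seen.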
